A study of Mus musculus with 4 samples.

Results

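The 8 genes described here encode enzymes of the pentose phosphate pathway (Pgls, Pgd, Rpia, Rpe, Tkt and Taldo1) and the cytosolic NADPH producers malic enzyme 1 (Me1) and isocitrate dehydrogenase 1 (Idh1). They were taken by gene name from the deposited expression table, where they are 8 of 34745 genes, and each name matched a single row. RNA was measured in bone marrow-derived macrophages (BMMs), which are grown from marrow cells with M-CSF and which the cytokine RANKL induces to become osteoclasts. The BMMs came from wild-type male C57BL/6 mice aged 8 weeks, were held for 12 h in serum-free medium, and then received RANKL at 100 ng/mL for 24 h. Dimethyl itaconate (DI), a membrane-permeable ester of the metabolite itaconate, was added in the RANKL+DI group (2 libraries), and DMSO as vehicle in the RANKL+Veh group (2 libraries). The labels give the dose of DI as 20 mM, while the paper's methods write the same number in μM. Every library received RANKL, so the values compare DI with vehicle only in its presence. The labels do not say whether the 2 libraries of a group came from separate mice or cultures, and the p-values measure only the spread between these samples, which may be technical.

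The pentose phosphate pathway branches from glycolysis at glucose 6-phosphate. Its oxidative branch makes NADPH, and its reversible non-oxidative branch interconverts sugar phosphates, linking ribose 5-phosphate for nucleotides back to glycolysis. NADPH is the reductant used by glutathione and thioredoxin reductases, by lipid and sterol synthesis and, in phagocytes, by the NADPH oxidase that makes superoxide. Several of these genes, Pgd, Taldo1, Tkt and Me1 among them, are textbook targets of the transcription factor NRF2, which binds antioxidant response elements and which electrophiles can activate.

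The counts summed to between 16085692 and 19403480 per library. A filter on low counts left 12590 genes for edgeR's quasi-likelihood test, of which 1868 (14.8%) had an adjusted p under 0.05 and are referred to as called. Called higher with DI were 899 (7.14%) and lower 969 (7.7%), whereas scaling by library size only, which moved the median of all genes by -0.10 on the log2 scale, gave 548 higher and 1932 lower. The macrophage markers Adgre1, Csf1r, Cd68 and Lyz2 were expressed in all 4 libraries, and of 7 such markers 4 were called higher with DI (Adgre1, Cd68, Lyz2 and Mertk) and 2 lower (Fcgr1 and Cd14). Their summed level was 26922 to 27831 CPM (counts scaled to a common library size) with DI and 21297 to 22101 CPM with vehicle, and without Lyz2, the most abundant, 4045 to 4150 against 3666 to 3812 CPM. Of the osteoclast markers, 5 were called lower with DI (Acp5, Ctsk, Mmp9, Nfatc1 and Ocstamp) and 2 higher (Atp6v0d2 and Itgb3), with a summed level of 714 to 731 CPM against 741 to 764, or 205 to 222 against 323 to 337 without Atp6v0d2, the most abundant, and Calcr had 0 counts. Summed markers of B cells, T and NK cells, mast cells and erythroid cells reached at most 0.6 CPM, those of neutrophils 7.89 to 9.9 CPM and those of stromal cells 39.2 to 46.6 CPM, with none called. The part of these marker levels in the values below was not tested, and in bulk samples fewer cells of a type and less RNA per cell cannot be told apart.

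All 8 enzymes passed the filter. With DI, 6 of 8 were called higher, against 7.14% of all tested genes. None was called lower by edgeR's quasi-likelihood test, DESeq2 or limma-voom, and none was lower at an unadjusted p under 0.05. These were Pgls and Pgd of the oxidative branch, Taldo1 and Tkt of the non-oxidative branch, and Me1 and Idh1. Their fold changes lay between 1.15 and 1.7, and the median over the 8 enzymes was 0.57 on the log2 scale, beside 0.001 over all tested genes. Rpia and Rpe, the isomerase and the epimerase of ribulose 5-phosphate, did not pass the test. The 2 groups did not overlap for the 6 called enzymes, as was the case for 58.6% of all tested genes. Calls depend on depth, and 4 of the enzymes had an average log2 CPM over 7. All 4 of these were called higher, against 22.8% of the 1531 genes that were as deep.

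**Figure D1:**
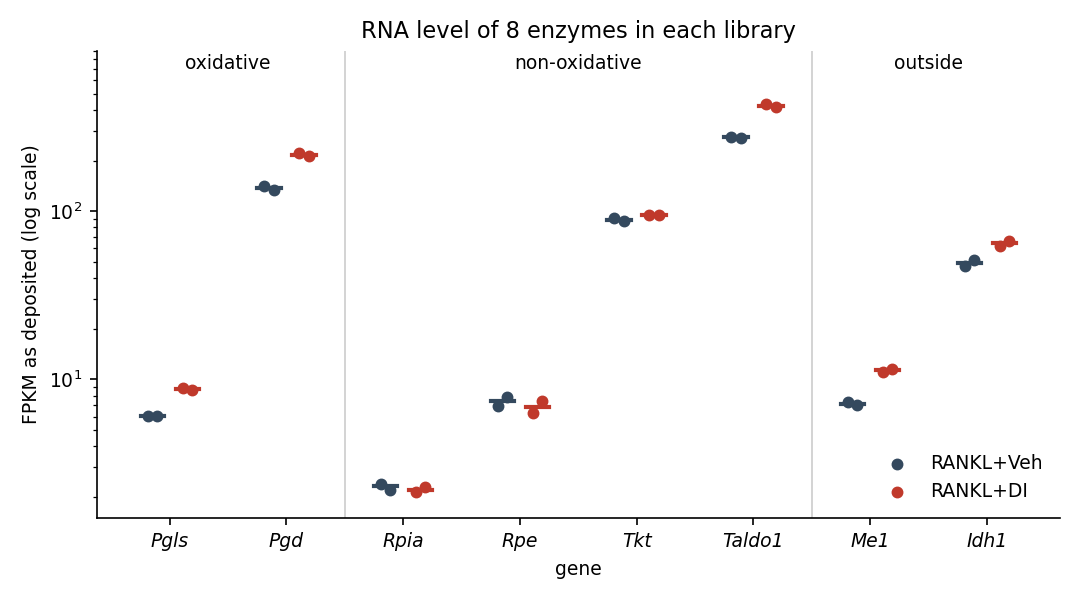
FPKM as deposited (log scale) of each enzyme in each library, grouped into the oxidative branch, the non-oxidative branch and the enzymes outside the pathway. Dots are libraries and bars are group means, and the RANKL+DI dots lie above the RANKL+Veh dots for every enzyme except Rpia and Rpe.

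In the oxidative branch, Pgls and Pgd rose by 1.56- and 1.69-fold with DI. Pgls (ENSMUSG00000031807, chr8:71592176-71601092, plus strand, GRCm38) encodes 6-phosphogluconolactonase, which hydrolyses the lactone made in the first step of the pathway. It was measured at 50.6 and 48.4 CPM with DI and at 31.7 and 31.9 CPM with vehicle, without overlap and with hardly any spread in the vehicle pair. Its difference was 0.64 ± 0.065 (log2, SE, adjusted p = 0.00305). Pgd (ENSMUSG00000028961, chr4:149149991-149166771, minus strand), 6-phosphogluconate dehydrogenase, carries out the second NADPH-producing step. Its level was 1687 and 1606 CPM with DI and 995 and 950 CPM with vehicle. Both DI libraries stood above both vehicle libraries, by 0.76 ± 0.041 on the log2 scale (SE, adjusted p = 0.000562), which is higher than the change of 97.6% of all tested genes. The 95% intervals of the log2 differences overlapped, at 0.48 to 0.80 for Pgls and 0.66 to 0.86 for Pgd.

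Some reads of these genes cannot be assigned with certainty, because the genes overlap others or have near copies and no source says that reads were counted by strand. Pgls shares 20.6% of its exon bases with Fam129c on the same strand, whose counts were 8 and 13 in the DI libraries and 6 in each vehicle library, against 531 to 907 counts of Pgls. Of Me1 (Gm48795 and Gm7049) and Taldo1 (Gm17823), transcripts annotated elsewhere in the genome matched 35.2% to 67.8% of the transcript at 94.7% to 98.7% identity. The deposited counts hold no row for these copies, so reads shared with them cannot be traced.

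In the non-oxidative branch, Taldo1 and Tkt rose and Rpia and Rpe were not called. Taldo1 (ENSMUSG00000025503, chr7:141392199-141402968, plus strand) encodes transaldolase, which transfers 3-carbon units between sugar phosphates. Its level was 1139 and 1086 CPM with DI and 678 and 668 CPM with vehicle, with a wide gap between the groups. The difference was 0.72 ± 0.038 (log2, SE, adjusted p = 0.000539). Tkt (ENSMUSG00000021957, chr14:30548359-30574722, plus strand) encodes transketolase, the thiamine-dependent enzyme that transfers 2-carbon units. It was measured at 741 and 737 CPM with DI and at 653 and 629 CPM with vehicle. The groups did not overlap but lay close to each other, and the difference was 0.21 ± 0.036 (log2, SE, adjusted p = 0.016), 1.15-fold. The 95% interval of Tkt, 0.12 to 0.29, lay apart from that of Taldo1, 0.63 to 0.82, on the log2 scale. Tkt was no longer called without RANKL+DI replicate 1 (0.20, adjusted p = 0.0511) or when scaled by library size only (0.10, adjusted p = 0.098).

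Rpia (ENSMUSG00000053604, chr6:70765720-70792232, minus strand), ribose 5-phosphate isomerase, makes the ribose 5-phosphate from which nucleotides are built. Its counts were 232 and 270 in the DI libraries and 264 and 217 in the vehicle libraries, or 13.5 and 14.4 CPM against 14.2 and 13 CPM, so that the groups overlapped. The log2 difference was 0.04 with a 95% interval of -0.22 to 0.30 (adjusted p = 0.859). Rpe (ENSMUSG00000026005, chr1:66700831-66719805, plus strand), ribulose 5-phosphate 3-epimerase, makes the xylulose 5-phosphate that transketolase uses. Its level was 26.1 and 30.5 CPM with DI and 26.7 and 30.2 CPM with vehicle. The lower library of each group lay close to the lower library of the other, and likewise the higher ones. The log2 difference was -0.01 with a 95% interval of -0.27 to 0.26 (adjusted p = 0.983). As folds, the intervals reach from 0.856 to 1.23 for Rpia and from 0.829 to 1.2 for Rpe. A change within them cannot be told from none with these libraries. The intervals are not adjusted for the number of genes tested, so a larger change could also have been missed. Rpe shares 17.9% of its exon bases with Kansl1l on the opposite strand, which had 125 to 163 counts and was not called.

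Outside the pathway, both cytosolic NADPH producers were higher with DI. Me1 (ENSMUSG00000032418, chr9:86581371-86695953, minus strand) oxidises malate to pyruvate and yields NADPH. Its level was 64.6 and 66.3 CPM with DI and 39.4 and 37.8 CPM with vehicle, and the spread within each pair was small beside the gap. The difference was 0.76 ± 0.063 (log2, SE, adjusted p = 0.00179), 1.7-fold, the highest estimate among the 8 enzymes together with that of Pgd. Idh1 (ENSMUSG00000025950, chr1:65158616-65186500, minus strand) oxidises isocitrate to 2-oxoglutarate in the cytosol and peroxisomes. It was measured at 293 and 312 CPM with DI and at 207 and 223 CPM with vehicle. The groups did not overlap, and the difference was 0.50 ± 0.055 (log2, SE, adjusted p = 0.00403). Its call held whichever library was left out, with an adjusted p of at most 0.0154.

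**Figure D2:**
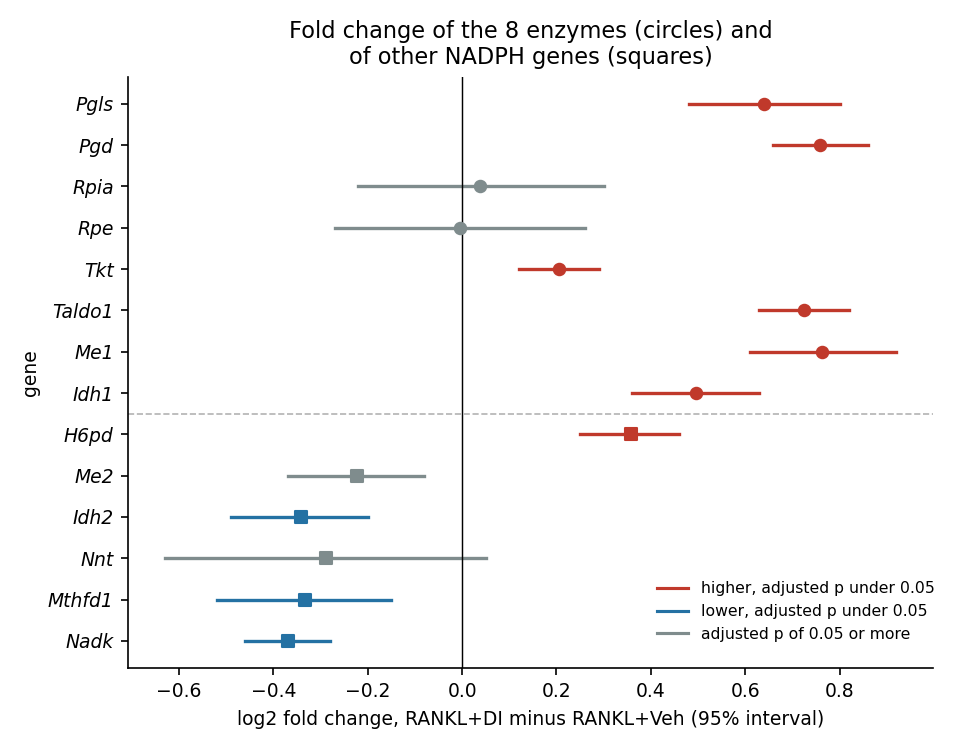
Log2 fold change of each of the 8 enzymes (circles) and of 6 other genes of NADPH metabolism (squares), RANKL+DI minus RANKL+Veh, with its 95% interval from the edgeR fit. The intervals of 6 enzymes lie to the right of 0 while those of Rpia and Rpe include it. Of the other genes, the intervals of Idh2, Mthfd1, Nadk and Me2 lie to the left, with Me2 above the threshold on the adjusted p. The interval of H6pd lies to the right and that of Nnt includes 0.

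Levels of different genes were compared on the FPKM scale, which accounts for gene length. The lengths implied by the deposited FPKM exceeded the exon bases in GENCODE M21 for every enzyme, by unequal amounts. They were 4.52 kb against 2771 bases for Idh1, and 7.47 kb against 7355 bases for Tkt. The order and ratios of different genes depend on these lengths. Taldo1 had the highest level in each of the 4 libraries, at 432 and 414 FPKM with DI and 277 and 273 FPKM with vehicle, and Pgd came next at 222, 212, 141 and 134 FPKM in the same order. Tkt followed, at 95.4 and 95.3 FPKM with DI and 90.5 and 87.1 FPKM with vehicle, and Idh1 was next at 47.4 to 66.7 FPKM. Me1, Pgls and Rpe lay between 6.02 and 11.5 FPKM, with Me1 above Pgls in each of the 4 libraries. Rpe lay below both in the DI libraries and above Pgls in both vehicle libraries. Rpe lay above Me1 only in RANKL+Veh replicate 2. Rpia was lowest in every library, at 2.13 to 2.4 FPKM. Within the oxidative branch the level of Pgd was 24.8 and 24.7 times that of Pgls with DI and 23.4 and 22.2 times with vehicle.

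The 8 enzymes together took 0.386% and 0.377% of all counts with DI and 0.274% and 0.267% with vehicle. Their summed level was 840 and 818 FPKM against 579 and 569 FPKM, 1.45-fold higher with DI on this scale, which is relative to the library total and gives smaller changes than the TMM-scaled CPM. The non-oxidative enzymes (Taldo1, Tkt, Rpia and Rpe) summed to 536 and 519 FPKM with DI and 377 and 370 FPKM with vehicle. Within this branch, the ratio of Taldo1 to Tkt was 4.53 and 4.34 with DI and 3.06 and 3.14 with vehicle. With 2 libraries against 2, the smallest p that an exact permutation test can give is 0.333, and these sums and ratios are given as descriptions.

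**Figure D3:**
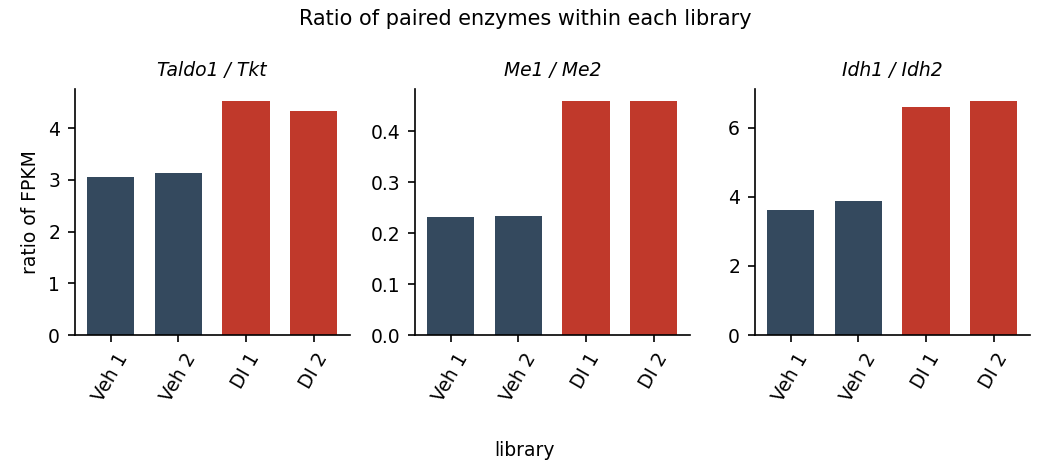
Ratio of FPKM values of a pair of enzymes within each library, for Taldo1 to Tkt, Me1 to Me2 and Idh1 to Idh2, in the 2 RANKL+Veh and the 2 RANKL+DI libraries (bars, from 0). All 3 ratios are higher in both DI libraries than in both vehicle libraries, and as a fold of the group means the Me1 to Me2 ratio differs most (1.98, against 1.79 for Idh1 to Idh2 and 1.43 for Taldo1 to Tkt).

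Because several of the genes moved together, their promoters were searched for the core of the antioxidant response element, TGANNNNGC on either strand, and for the E-box CACGTG. RefSeq (GRCm38.p6) gave 11 promoters for the 8 genes, each of 250 bases before and 50 after an annotated start. The letters TGANNNNGC were found in 5 of 11, belonging to 5 genes, and in 41.3% of all 32851 promoters. The stricter TGACNNNGC, whose matches are all matches of the first, was found in 2 of 11 (Pgd and Me1) and in 12.4% of all promoters. CACGTG was found in 0 of 11 and in 7.15% of all. The stretches that hold the match are shown for the 5 genes that had one, 5′ to 3′ on the strand of the gene. The match is in capitals.
Me1: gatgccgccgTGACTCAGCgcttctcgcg
Pgd: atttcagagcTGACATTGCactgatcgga
Tkt: cggcctggggTGATTCGGCgccccgcccc
Idh1: aggacttaacGCTGCCTCAgccatcctga
Taldo1: tgaggcttacTGAGCGCGCgtctcagtag

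In Idh1 the element reads on the strand opposite to the gene. The match of Me1 (chr9:86695902-86695930 for the stretch shown) begins 6 bases before the annotated start, that of Idh1 (chr1:65186469-65186497) 8 bases before, that of Tkt (chr14:30549084-30549112) 37 before and that of Taldo1 (chr7:141391929-141391957) 221 before. In GENCODE M21 the stretches of Me1, Idh1 and Tkt lie in non-coding parts of exons, since other transcripts of these genes start further upstream, and that of Taldo1 lies outside the gene. The match of Pgd (chr4:149166061-149166089) begins 3 bases after a second, downstream start, and 22 of the 29 bases shown are coding in GENCODE. Pgls, which was called higher, had no match in its window, nor had Rpia and Rpe. A match describes letters and not a bound site, and these libraries do not measure binding.

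Of 8 tested genes on a list of other genes of the pentose phosphate pathway and of ribose metabolism, 2 were called higher and 1 lower, against 7.14% and 7.7% of all tested genes, with a median log2 difference of 0.16. H6pd encodes the dehydrogenase that carries out the first steps of the pathway inside the endoplasmic reticulum. It had 144 and 145 CPM with DI and 114 and 112 CPM with vehicle, a difference of 0.36 ± 0.042 (log2, SE, adjusted p = 0.00467). The other gene called higher is listed in the deposited table as Pgm2 (ENSMUSG00000025791) and named Pgm1 in RefSeq, and encodes a phosphoglucomutase (0.47 ± 0.074, log2, SE, adjusted p = 0.0115). The gene that RefSeq names Pgm2, whose enzyme acts on pentose phosphates, is listed as Pgm1 in the table and was not called (0.01, adjusted p = 0.964). Prps1 encodes the synthetase that turns ribose 5-phosphate into the activated ribose used for nucleotides. It fell from 22.8 and 23.1 CPM with vehicle to 16 and 15.6 CPM with DI, a log2 difference of -0.54 ± 0.086 (SE, adjusted p = 0.0124). Of 15 tested genes that the authors' KEGG annotation assigns to the pathway beside the enzymes, 6 were called higher and 1 lower, with a median of 0.17, and these include H6pd, Prps1, the gene listed as Pgm2 and genes of glycolysis. Only 4 of the 15 are on none of the lists used here, of which the aldolase gene Aldoc was called higher (0.43 ± 0.068, log2, SE, adjusted p = 0.0119). The transketolase-like genes Tktl1 and Tktl2 had 0 counts in all libraries.

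A list of other NADPH sources, NAD kinases and folate-cycle genes, which does not hold H6pd, had 12 tested genes. The quasi-likelihood test of edgeR called 4 lower with DI and 0 higher, against 7.7% and 7.14% of all tested genes. The median log2 difference of the list was -0.26. At an unadjusted p under 0.05, 6 were lower and 1 higher, and DESeq2 and limma-voom likewise called 0 higher after adjustment. Scaling by library size only gave 6 lower and 0 higher. Idh2, the mitochondrial counterpart of Idh1, had 50.7 and 52.6 CPM with DI and 65.1 and 65.9 CPM with vehicle, a difference of -0.34 ± 0.060 (log2, SE, adjusted p = 0.0162). The ratio of Idh1 to Idh2 in FPKM was 6.61 and 6.78 with DI and 3.63 and 3.87 with vehicle. Me2, the mitochondrial malic enzyme, had 61.8 and 63.3 CPM with DI and 74.7 and 71.3 CPM with vehicle and narrowly missed the threshold (-0.22 ± 0.060, log2, SE, adjusted p = 0.06). The ratio of Me1 to Me2 was 0.46 in both DI libraries and 0.232 and 0.233 with vehicle. Me3 had 0 counts in all libraries. Nadk, the cytosolic kinase that makes NADP from NAD, had 275 and 280 CPM with DI and 361 and 355 CPM with vehicle (-0.37 ± 0.037, log2, SE, adjusted p = 0.00298). Mthfd1, whose enzyme has an NADP-dependent dehydrogenase, and Mthfd1l, a mitochondrial formyltetrahydrofolate synthetase that does not itself make NADPH, also fell (-0.33 ± 0.076 and -0.36 ± 0.066, log2, SE, adjusted p = 0.0365 and 0.019). The transhydrogenase Nnt was uneven with DI, at 37.7 and 50.9 CPM, against 53.8 and 54.6 CPM with vehicle, and was not called (-0.29, adjusted p = 0.229), except without RANKL+DI replicate 2 (-0.52, adjusted p = 0.0141), while without RANKL+DI replicate 1 it was at -0.087 (adjusted p = 0.616). Of these calls, that of Nadk held whichever library was left out. Idh2 was lost without RANKL+DI replicate 1 (adjusted p = 0.0661) or either vehicle library (0.0536 and 0.0623), Mthfd1 likewise (0.128, 0.131 and 0.0607), and Mthfd1l whichever of the 4 libraries was left out (0.0586 to 0.088).

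On a list of reductases, most of which use NADPH, most genes were higher with DI. Of 16 tested, 11 were called higher and 1 lower, against 7.14% and 7.7% of all tested genes, with a median of 0.54. Scaling by library size only gave 8 higher and 1 lower. Nqo1, a quinone reductase, rose from 59.8 and 50.6 CPM with vehicle to 150 and 163 CPM with DI (2.83-fold, 95% interval 2.43 to 3.3, adjusted p = 0.000648). The carbonyl reductase Cbr3 (1.22 ± 0.061, adjusted p = 0.000482), the prostaglandin reductase Ptgr1 (1.19 ± 0.042, adjusted p = 0.000258) and the biliverdin reductase Blvrb (0.89 ± 0.064, adjusted p = 0.00115) followed on the log2 scale. Gsr, glutathione reductase, had 231 and 238 CPM with DI and 148 and 141 CPM with vehicle (0.70 ± 0.044, log2, SE, adjusted p = 0.000807). Txnrd1, the cytosolic thioredoxin reductase, had 1174 and 1167 CPM with DI and 724 and 683 CPM with vehicle (0.73 ± 0.040, log2, SE, adjusted p = 0.00056). The log2 differences of Gsr and Txnrd1 thus lay between those of Pgls and Pgd.

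Of 7 tested genes of the phagocyte NADPH oxidase and of nitric oxide synthase, edgeR's quasi-likelihood test called 4 higher with DI and 0 lower. Over all tested genes 7.14% were called higher, and 22.8% of those with an average log2 CPM over 7. The median log2 difference of the 7 genes was 0.18. At an unadjusted p under 0.05, 2 were lower (Ncf4 and Nos2). The exact test of edgeR called 2 higher and 1 lower, and Cybb and Cyba lost their calls. Scaling by library size only gave 2 higher and 2 lower. Ncf1, a cytosolic subunit of the oxidase, was called at 0.27 ± 0.042 (log2, SE, adjusted p = 0.0119). With library size only it was still called, at 0.16 (adjusted p = 0.0455). It was not called by limma on log2(FPKM + 0.01) or log2(FPKM + 1) (adjusted p = 0.195 and 0.121). Cybb, the catalytic subunit, had 1107 and 1105 CPM with DI and 965 and 992 CPM with vehicle (0.18 ± 0.033, log2, SE, adjusted p = 0.0192). It was not called without RANKL+DI replicate 1, RANKL+DI replicate 2 or RANKL+Veh replicate 1 (adjusted p = 0.0683, 0.0664 and 0.0598). Cyba, its membrane partner (0.18 ± 0.045, log2, SE, adjusted p = 0.0477), was not called without RANKL+DI replicate 1, RANKL+DI replicate 2 or RANKL+Veh replicate 2 (0.0673, 0.154 and 0.139). Nos2, the inducible nitric oxide synthase, had counts of 4 and 5 in the DI libraries and 21 and 11 in the vehicle libraries and did not pass the quasi-likelihood test (adjusted p = 0.0681).

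**Figure D4:**
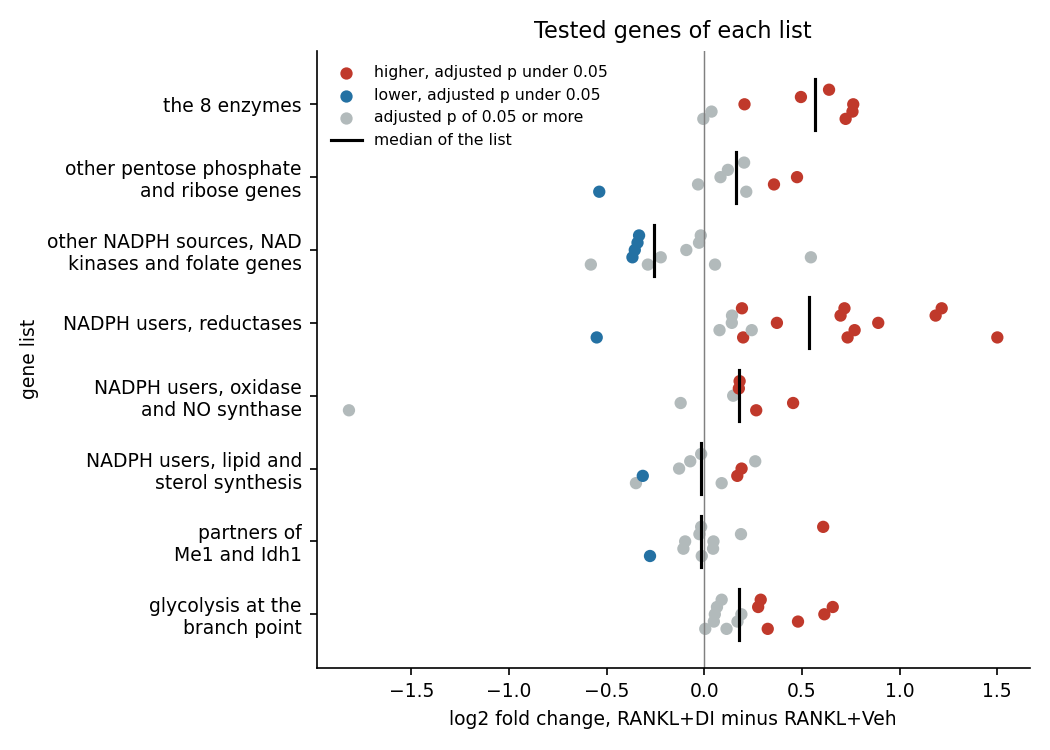
Log2 fold change (RANKL+DI minus RANKL+Veh) of each tested gene of the 8 enzymes and of 7 lists of related genes. Each dot is a gene, coloured by its call, and the vertical bars are medians, which are 0.57 for the 8 enzymes, 0.54 for the reductases and -0.26 for the other NADPH sources, NAD kinases and folate genes.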

How the data were processed

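RNA was sequenced from 4 libraries of BMMs (VAHTS mRNA-seq v2, paired-end), 2 of RANKL+DI and 2 of RANKL+Veh, grouped by their labels. The authors deposited raw counts per gene and library. The authors also deposited FPKM, which follow from counts, gene lengths and library totals to a relative difference of 0.000312 at most. Both are repeated in another deposited table that adds KEGG pathways. The submitters' processing notes name the builds GRCm38 and mm10. The aligner, the counting program and the annotation release are not given in the sources used here.

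The analysis of counts used edgeR 4.0.16 under R 4.3.3 (TMM factors of 0.963 to 1.04, default filter on low counts, quasi-likelihood fit with condition as its only term, Benjamini-Hochberg adjustment over all tested genes). The F statistic and the log2 fold change gave each SE. CPM are relative to TMM-scaled library sizes. A count of 3, taken as the floor, corresponds to 0.16 to 0.18 CPM, and intervals over genes come from the fit. Libraries of a group differed by more than sampling noise (chi-square per degree of freedom 8.14 for RANKL+Veh and 7.98 for RANKL+DI). The steps were tested on simulated data in which equal numbers of genes were raised and lowered. Such data cannot show how the scaling handles an unbalanced change. Alternatives were DESeq2 1.42.0 size factors and Wald test, upper quartile factors, library size only, other filters, limma-voom (limma 3.58.1), the exact test of edgeR, limma on log2(FPKM + 0.01) or log2(FPKM + 1), a prior count of 2, a threshold of 0.01, the replicate number as a block, and each library left out.

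The enzymes, the 7 gene lists and the tests were chosen with earlier results of these data known, and no list is independent evidence. The genes named are the 8 enzymes, a set fixed by name (H6pd, Idh2, Me2, Me3, Nnt, Mthfd1, Nadk, Gsr, Txnrd1, Nqo1, Cybb and Tigar), and up to 4 called genes per list with an absolute log2 change of at least 0.5. Called genes under that size that complete a small count, and genes at 0 counts, were named after their values were seen. An enzyme of the pathway and some genes of the lists are not reported here. The macrophage marker Itgam, whose name has more than 1 row in the table, was left out. Overlaps and copies came from GENCODE M21 and BLAST 2.17.0 (matches of 80% identity or more that cover 20% of the transcript or more).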

Additional observations from a re-analysis of the deposited data

How the results depend on the processing

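Of the 8 enzymes, 4 to 6 were called under every alternative, all of them higher, and 5 to 6 when each library was left out in turn. The calls of Pgls, Pgd, Taldo1 and Me1 held in every setting run. Tkt was not called with library size only (0.10), edgeR's exact test (0.21), log2(FPKM + 0.01) (0.10) or log2(FPKM + 1) (0.10), with adjusted p = 0.098, 0.11, 0.325 and 0.243. At a threshold of 0.01 Tkt was not called either (adjusted p = 0.016 by the quasi-likelihood test). Over the libraries left out it ranged from 0.18 to 0.23. Idh1 was lost with log2(FPKM + 0.01) (0.39, adjusted p = 0.0765). Rpia, never called, turned negative with library size only (-0.066), log2(FPKM + 0.01) (-0.065) and log2(FPKM + 1) (-0.045), and ranged from -0.02 to 0.099 over the libraries left out, as did Rpe from -0.12 to 0.10. With log2(FPKM + 0.01), 645 genes in all and 13 of the list genes were called, against 1868 and 35, and leaving out a library gave 1087 (without RANKL+Veh replicate 2) to 1394 genes in all and 24 to 27 list genes. Scaling by library size only split the list genes into 19 higher and 15 lower, against 27 and 8. Same-numbered libraries did not deviate together (correlation across genes of -0.0501), and the labels do not tie them, so they were not treated as pairs. With the replicate number as a block, 6 enzymes, 1389 genes in all and 31 list genes were called, the calls of Mthfd1, Cyba and Scd2 among those lost. The causes were not tested. Of 400 alternative values of the 25 other genes named, 51 lost and 4 gained the call. Rpia had the fewest counts of the enzymes, 217 to 270, with an SE of 0.107, and Rpe had 448 to 572 counts, with an SE of 0.108. The part of depth in the width of their intervals was not tested.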

Other observations

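Around the point where the pathway leaves glycolysis, edgeR's quasi-likelihood test called 6 of 14 tested glycolysis genes higher with DI and 0 lower. Over all tested genes 7.14% were called higher, and 22.8% of those with an average log2 CPM over 7. The median log2 difference of the 14 genes was 0.18. Of them, 0 were lower at an unadjusted p under 0.05 or by DESeq2 or limma-voom. Scaling by library size only gave 5 higher and 0 lower. The glucose transporter Slc2a1 rose from 96.5 and 103 CPM with vehicle to 153 and 152 CPM with DI (0.62 ± 0.049, log2, SE, adjusted p = 0.00156). Pfkfb4, which sets the level of fructose 2,6-bisphosphate, had 34.8 and 34.7 CPM with DI and 21.8 and 22.2 CPM with vehicle (0.66 ± 0.070, log2, SE, adjusted p = 0.00356). The others called were Hk3, Gpi1, Pfkp and Aldoa, at 0.28 to 0.48. Tigar, a phosphatase that can turn flux toward the pathway, was at 31.1 and 30.1 CPM with DI and 28.7 and 27.9 CPM with vehicle (0.11, adjusted p = 0.339).

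Of 10 tested genes that supply Me1 and Idh1 with substrate or share their cycle, 1 was called higher and 1 lower. The shares over all tested genes were 7.14% and 7.7%. The median of the 10 genes was -0.01. Scaling by library size only gave 1 higher and 2 lower. Pyruvate carboxylase, Pcx, rose from 14.4 and 14.9 CPM to 21.6 and 23.1 CPM (0.61 ± 0.093, log2, SE, adjusted p = 0.0106). Idh3a, of the NAD-dependent isocitrate dehydrogenase, was lower (-0.28 ± 0.057, adjusted p = 0.0267), a call lost whichever of the 4 libraries was left out (adjusted p = 0.0527 to 0.116). Of 9 tested genes of lipid and sterol synthesis, 2 were called higher and 1 lower, with a median of -0.02, while scaling by library size only gave 0 higher and 2 lower by the same edgeR test, and edgeR's exact test called 0 higher and 1 lower. Fasn, fatty acid synthase, a large user of NADPH, had 143 and 137 CPM with DI and 174 and 175 CPM with vehicle (-0.31 ± 0.044, log2, SE, adjusted p = 0.00766). Scd2, a stearoyl-CoA desaturase (0.17, adjusted p = 0.0258), lost its call whichever of the 4 libraries was left out, with adjusted p from 0.0743 to 0.0916.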
